A study of Arabidopsis thaliana with 8 samples.

Results

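Transcript levels of as1-1 tfl2-1 double mutant seedlings were compared with those of wild type (WT), using the 2 arrays that the sample titles give to each genotype, 4 of the 8 arrays of the series. Arabidopsis thaliana of ecotype Col-0 was harvested as entire 12-day-old seedlings, grown at 22 °C on MS medium under a cycle of 16 h light and 8 h dark. The double mutant carries as1-1 and tfl2-1 together, and the other 4 arrays hold the single mutants, tfl2-1 and as1-1, with 2 arrays each. The WT plants carry neither allele, and the labels name no treatment. Labelled RNA was hybridised to single-colour Agilent arrays, so every value is a brightness per probe and not a count of molecules. Whether the 2 arrays of a genotype came from separate plantings is not stated in the labels, so the p-values measure the spread between these samples, which may be technical. The double mutant and tfl2-1 arrays lay on slide 2, and the WT and as1-1 arrays on slide 1. Slide and genotype cannot be told apart when the double mutant is set against WT, whereas the double mutant and tfl2-1 shared a slide. Whole seedlings mix shoot, root and meristem cells, and fewer cells of a type and less RNA per cell cannot be told apart in such bulk samples.

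AS1 (Asymmetric Leaves1) encodes a MYB-domain protein that acts with AS2 to keep class I KNOX homeobox genes silent in developing leaves. KNOX genes of this class maintain the undifferentiated cells of the shoot meristem, and leaves that express them become lobed. TFL2 (also named LHP1) codes for a chromodomain protein that works in the Polycomb pathway. It binds a repressive histone mark and helps to keep floral and flowering time genes silent in seedlings. Plants without TFL2 are known to flower early, with small curled leaves. The comparison asks what becomes of gene expression when both repressors are lost at once.

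Levels below are log2 signals with the 75th percentile of each array set to 0, and they can be compared between genotypes for a gene but not between genes. The AS1 probe read 0.82 and 0.95 in the double mutant, against 0.90 and 0.83 in WT, and the groups overlapped (limma log2 difference 0.022 ± 0.0615, adjusted p = 0.771). The TFL2 probe read -1.03 and -0.99 in the double mutant, against -0.23 and -0.33 in WT, with no overlap, a 1.66-fold fall (limma log2 difference -0.73 ± 0.0607, adjusted p = 0.000129). With the spike-in scaling described next, its difference was -0.44 and no longer passed the test. Since the position of the probes relative to the mutations is not stated in the labels, these levels do not check the genotypes. Between 29531 and 31614 of 43603 probes per array were well above background on the double mutant arrays, against 29549 and 30132 on the WT arrays. Across probes the arrays of a genotype correlated at 0.995, and double mutant and WT arrays at 0.954 to 0.958. The 8 spike-in controls above background read 0.21 to 0.32 lower on the log2 scale in the double mutant (median -0.30). Scaling to them in place of the 75th percentile raised every difference, so that the median over all genes became 0.28 in place of -0.01. Differences below are relative to the 75th percentile. An alternative background correction, normexp with an offset, shrinks the differences of dim genes, and its value is given beside a gene printed with a measured difference where it moved that log2 difference by over 1.5 times.

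Much of the transcriptome differed between the genotypes. Of 22670 genes tested, 6983 (30.8%) were higher and 7454 (32.9%) lower in the double mutant than in WT at an adjusted p under 0.05 (limma, Benjamini-Hochberg over all genes tested), 63.7% in all. Under the spike-in scaling 74.8% of the calls were higher, against 48.4% under the 75th percentile. The 2 arrays of each genotype were close, and most calls were small, with a median size of 0.51 on the log2 scale. A change of at least 2-fold past the same threshold was rarer, with 1203 genes higher (5.31%) and 1591 lower (7.02%), 12.3% in either direction. The double mutant and WT arrays did not overlap for 18722 genes (82.6%), so a lack of overlap separates few genes from the rest. Counts of members changed by at least 2-fold are therefore read below against 5.31% and 7.02%. Counts of members called at any size stand against 30.8% higher and 32.9% lower. Of the calls, 313 higher genes were below background on both WT arrays and 136 lower genes below background on both double mutant arrays. Such folds are given as lower bounds ("at least"). They are taken against the lowest measurable signal of the array, or the gene's own reading where higher, as for CUC1 and HB21 in WT. They allow for that limit and not for the spread between arrays. Leaving out 1 array took some fitted differences, such as those of RAX1, STK and LOF1, below the bound. Those bounds hold for the signals as Feature Extraction processed them, and normexp gave smaller differences for these genes, such as 4.40 for AP3 against a log2 bound of 7.49, and 0.44 for SPL (SPOROCYTELESS) against 1.15. Genes below background in WT entered the test because a mutant showed them, so for lists rich in such genes the members measured on all 4 arrays are counted apart. Of the 21072 genes measured on all 4 arrays, 3.96% rose and 5.96% fell by at least 2-fold.

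**Figure D1:**
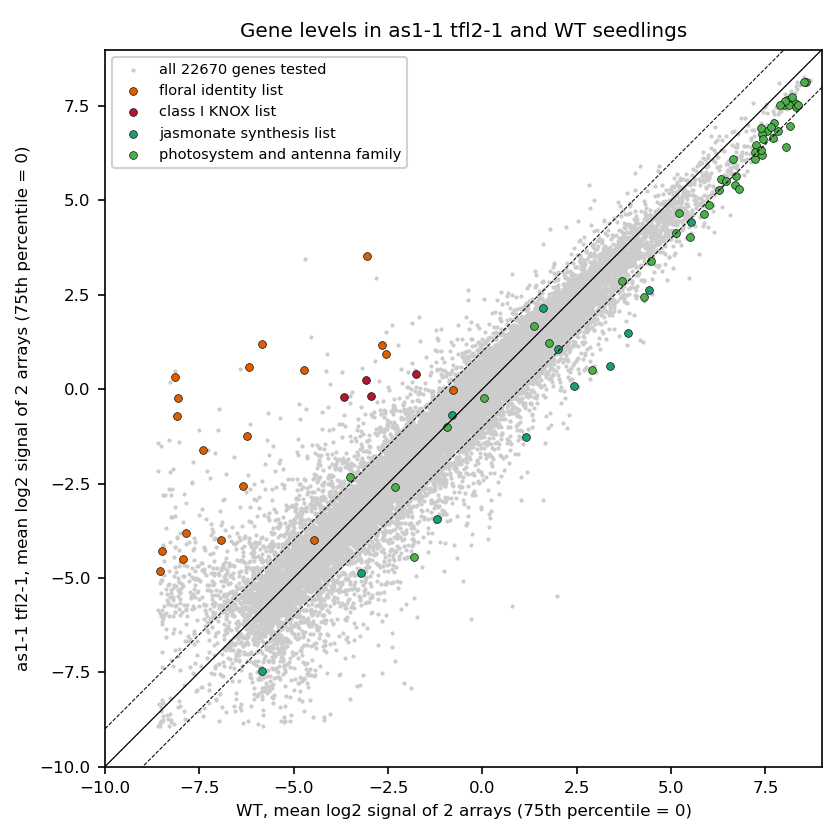
Mean log2 signal of the 2 as1-1 tfl2-1 arrays (vertical axis) against that of the 2 WT arrays (horizontal axis), each relative to the 75th percentile of its array, for the 22670 genes tested. The solid line marks equal levels and the dashed lines a 2-fold difference; the 4 class I KNOX genes and 17 of the 19 floral genes lie above the band, most jasmonate synthesis genes below it.

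The class I KNOX genes rose as a group, each of the 4 members by more than 4-fold. KNAT1 (also named BREVIPEDICELLUS), which shapes the inflorescence and marks the meristem outside leaf primordia, read 0.21 and 0.28 in the double mutant, against -3.03 and -3.12 in WT, a 9.98-fold rise (log2 difference 3.32 ± 0.0563, adjusted p = 1.01e-06). KNAT2 read -0.24 and -0.18 in the double mutant, against -3.73 and -3.60 in WT (11.0-fold, 3.46 ± 0.0579, adjusted p = 9.85e-07). For KNAT6, which acts at organ boundaries, the levels were -0.26 and -0.082 in the double mutant, against -2.97 and -2.95 in WT (6.89-fold, 2.78 ± 0.0868, adjusted p = 3.72e-06). The values of the genotypes were far apart, and the 2 arrays of a genotype lay close together. STM, which is required to keep a shoot meristem, read 0.37 and 0.43 in the double mutant, against -1.68 and -1.83 in WT (4.46-fold, 2.16 ± 0.0727, adjusted p = 4.56e-06). KNAT1 and STM each had a second probe, which gave 3.93 and 2.60. Against tfl2-1 on the same slide the double mutant was higher by 2.35 ± 0.0563 for KNAT1, 1.53 ± 0.0579 for KNAT2, 1.38 ± 0.0868 for KNAT6 and 0.69 ± 0.0727 for STM on the log2 scale, with adjusted p from limma of 2.1e-05, 6.62e-05, 0.000253 and 0.00142. In that same-slide comparison 31.5% of all genes were called. The class II KNOX genes, which are expressed in differentiated organs, moved little. KNAT3 read 0.93 and 1.02 in the double mutant, against 0.26 and 0.34 in WT (1.59-fold higher, 0.67 ± 0.0547, adjusted p = 0.00012), and KNAT4 did not pass the test. KNAT5 rose 1.21-fold, a call lost on leaving out either double mutant array or WT replicate 2 (log2 differences 0.25 to 0.30 over the 4 arrays left out). KNAT7 fell by 0.16, a call lost without WT replicate 1, WT replicate 2 or double mutant replicate 1 (-0.21 to -0.11 over the 4 arrays left out), and turned to 0.13 under the spike-in scaling.

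BELL homeodomain proteins pair with KNOX proteins to enter the nucleus and bind DNA. Of 13 BELL genes, 5 were higher (38.5%) and 4 lower (30.8%), near the 30.8% and 32.9% of all genes, with a median of 0.22. Under the spike-in scaling 7 were higher and 2 lower. RPL (also named PENNYWISE), a partner of STM and KNAT1 in the inflorescence, read 2.61 and 2.47 in the double mutant, against 0.64 and 0.74 in WT, 3.60-fold higher (1.85 ± 0.0787, adjusted p = 1.04e-05). PNF, its close relative, read -1.06 and -1.30 in the double mutant, against -3.32 and -3.04 in WT, 3.99-fold higher (2.00 ± 0.136, adjusted p = 5.83e-05). Both genotypes' arrays were well separated for this pair of partners. In the other direction, BLH6, a regulator of secondary walls, read -2.37 and -2.31 in the double mutant, against -0.52 and -0.52 in WT, 3.54-fold lower (-1.82 ± 0.0497, adjusted p = 2.61e-06), and BLH4 fell 2.12-fold.

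Organ boundary genes, which mark the border between meristem and leaf, rose together. All 10 members tested were higher, 7 of them by at least 2-fold, against 5.31% of all genes, and the median was 1.95 against -0.01 over all genes, or 0.96 with normexp. CUC1, one of the NAC factors that separate cotyledons and leaves, read -3.75 and -3.69 in the double mutant, against -6.79 and -6.86 in WT, below background on both WT arrays and at least 8.61-fold higher (limma adjusted p = 1.09e-06). Its relatives CUC2 and CUC3 were measured on all 4 arrays. CUC2 read -2.92 and -2.89 in the double mutant, against -4.87 and -5.02 in WT (4.13-fold, 2.05 ± 0.185, adjusted p = 0.000185; 0.96 with normexp). CUC3 read -2.10 and -1.91 in the double mutant, against -4.30 and -4.28 in WT (4.87-fold, 2.29 ± 0.0812, adjusted p = 5.46e-06; 1.35 with normexp). LOF1, a MYB factor of the same borders, was below background in WT and at least 7.93-fold higher (adjusted p = 0.000276). BOP2, which represses growth and KNOX genes at the leaf base, read 0.00225 and 0.092 in the double mutant, against -2.02 and -1.96 in WT (4.10-fold, 2.04 ± 0.0526, adjusted p = 2.27e-06). The 8 members measured on all 4 arrays had a median of 1.56. No member's arrays overlapped between the genotypes, but neither did those of 82.6% of all genes. With normexp 8 of the 10 were called higher.

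Among 10 meristem and branching genes tested, 6 were higher and 2 lower, but 5 of the 10 lacked signal on all 4 arrays, and the median of 1.41 was 0.037 over the 5 measured throughout and 0.28 with normexp. The largest rise was that of BRC1, a TCP factor that holds axillary buds dormant, which read -0.36 and -0.41 in the double mutant, against -4.98 and -4.72 in WT (22.1-fold, 4.46 ± 0.162, adjusted p = 5.89e-06), and a second probe gave 2.95. WOX3 (PRESSED FLOWER), which promotes lateral growth of organs, was below background in WT and at least 4.50-fold higher (adjusted p = 0.00628), though its 2 double mutant arrays read -3.97 and -6.02 and its fitted differences were 2.06 to 4.10 on leaving out 1 array (lowest without double mutant replicate 1). Its call was lost with normexp at a log2 difference of 0.55. LAS, DRNL and RAX1, regulators of axillary meristems and organ founder cells, were at least 2.55-, 3.15- and 3.68-fold higher. The call of LAS was lost with normexp at 0.30. The fitted log2 difference of RAX1 ran over 1.57 to 2.25 on leaving out 1 array, its lowest value lying below that bound. WOX1 fell 2.80-fold, reading -3.29 and -3.42 in the double mutant, against -1.92 and -1.81 in WT (-1.48 ± 0.0850, adjusted p = 2.94e-05). WUS and CLV3, which mark the stem cell centre, did not pass the filter on signal.

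**Figure D2:**
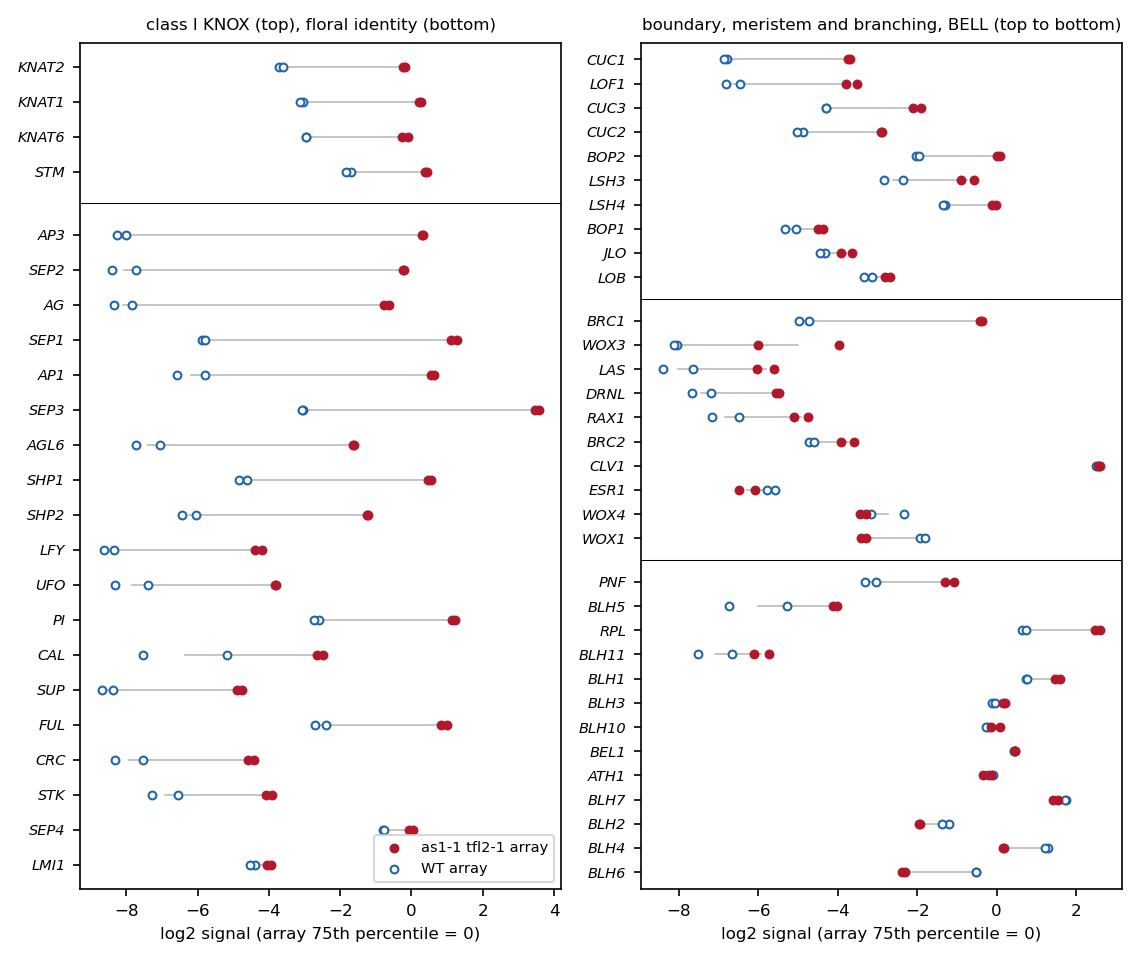
Log2 signal per array (horizontal axes, array 75th percentile = 0) of the class I KNOX, floral identity, boundary, meristem and BELL genes tested, ordered by difference, with as1-1 tfl2-1 arrays filled and WT arrays open, and a line between the genotype means. The filled points lie right of the open ones for every KNOX, floral and boundary gene.

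Floral genes were higher in the 12-day-old double mutant seedlings, from WT levels that ranged from below background to clearly measured. All 19 floral organ and floral meristem genes tested were higher (median 4.20, or 3.85 with lower bounds in place of fitted values). Of these, 9 were below background on both WT arrays and could only enter by being higher, and 3 were above it on 1 of the 2. Of the 7 measured on all 4 arrays, 7 rose, 5 by at least 2-fold (median 3.85). SEP1 and SEP3 encode MADS proteins that join the organ identity complexes of the flower. SEP3 read 3.59 and 3.48 in the double mutant, against -3.04 and -3.06 in WT, a 95.9-fold rise (6.58 ± 0.0607, adjusted p = 2.55e-07), and a second probe gave 6.78. SEP1 read 1.28 and 1.11 in the double mutant, against -5.89 and -5.79 in WT (131-fold, 7.04 ± 0.110, adjusted p = 9.05e-07). Among the genes of petal and stamen identity, PI read 1.23 and 1.13 in the double mutant, against -2.60 and -2.73 in WT (14.4-fold, 3.85 ± 0.0642, adjusted p = 9.85e-07). AP3, its partner, read 0.33 and 0.31 in the double mutant, against -8.27 and -8.00 in WT, below background in WT and at least 179-fold higher (adjusted p = 1.95e-06). Among carpel genes, AG was at least 88.5-fold higher (adjusted p = 3.04e-06), and SHP1, which shapes the fruit valve margin, read 0.46 and 0.56 in the double mutant, against -4.84 and -4.61 in WT (37.6-fold, 5.23 ± 0.0842, adjusted p = 9.33e-07). FUL, which acts in fruit and in the inflorescence, read 1.01 and 0.84 in the double mutant, against -2.70 and -2.38 in WT (11.1-fold, 3.47 ± 0.112, adjusted p = 4.16e-06). SEP2 and AGL6 were below background in WT and at least 123- and 44.5-fold higher.

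Regulators of floral meristem fate rose too. AP1, an early marker of floral meristems, read 0.54 and 0.64 in the double mutant, against -6.57 and -5.81 in WT, above background on 1 of the 2 WT arrays, with a log2 difference of 6.78 ± 0.947, adjusted p = 0.00118. LFY, which switches on AP1, and UFO, its cofactor, were below background in WT and at least 7.32- and 10.2-fold higher (adjusted p = 0.00299 and 6.36e-05). SUP, CRC and STK, which act late in stamens, nectaries, carpels and ovules, were at least 5.07-, 6.31- and 7.38-fold higher. The smallest rises were those of SEP4, 1.71-fold, and LMI1, 1.38-fold, or a log2 difference of 0.13 with normexp, which did not pass. Both were measured on all 4 arrays. The median difference of these genes from WT was 4.18 in tfl2-1 and -0.063 in as1-1, and these comparisons share the WT arrays with that of the double mutant. Of 5 anther markers, 4 did not pass the filter, and SPL (SPOROCYTELESS) was at least 2.22-fold higher, with -5.62 and -6.40 in the double mutant, against -8.62 and -8.31 in WT and a normexp difference of 0.44.

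Genes that promote flowering rose as well, in 12 of 15 members tested (9 by at least 2-fold, median 1.74, or 1.03 with normexp). Of the 12 measured on all 4 arrays, 9 rose. SPL3, an SBP factor that promotes the floral transition with age and is held down by miR156, read 2.40 and 2.31 in the double mutant, against -0.34 and -0.42 in WT (6.65-fold, 2.73 ± 0.0581, adjusted p = 1.5e-06). SPL4 read 1.58 and 1.60 in the double mutant, against -1.12 and -1.09 in WT (6.46-fold, 2.69 ± 0.0589, adjusted p = 1.61e-06). The MADS genes AGL17 and AGL42 were below background on both WT arrays. They were at least 56.8- and 37.7-fold higher (adjusted p = 1.07e-05 and 0.000572), and second probes gave 6.96 and 5.58. FDP, a bZIP relative of FD, was at least 4.37-fold higher. FT, the mobile flowering signal made in leaf veins, is named after its values were seen, and read -0.84 and -0.95 in the double mutant, against -3.14 and -3.17 in WT (4.78-fold, 2.26 ± 0.0707, adjusted p = 3.78e-06). FKF1, a blue light receptor that stabilises CO, fell 1.39-fold, reading 1.19 and 1.24 in the double mutant, against 1.82 and 1.56 in WT (-0.47 ± 0.0870, adjusted p = 0.00391), a call lost under the spike-in scaling at -0.19, and -0.60 to -0.34 on leaving out 1 array (smallest without WT replicate 1). The SPL family as a whole had 9 of 14 members higher, 5 of them by at least 2-fold, and 2 lower. SPL8, which is not a target of miR156 and acts in fertility, had the largest rise, reading 1.26 and 1.28 in the double mutant, against -1.65 and -1.65 in WT (7.54-fold, 2.91 ± 0.0518, adjusted p = 1.01e-06). SPL1 fell by 0.18, a call lost without double mutant replicate 2 and turned to a difference of 0.11 under the spike-in scaling.

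Repressors of flowering did not move as a group, with 5 of 18 higher and 8 lower, and a median of -0.14 that became 0.14 under the spike-in scaling. SNZ, an AP2-type repressor, read -3.35 and -3.25 in the double mutant, against 0.21 and 0.14 in WT, 11.2-fold lower (-3.48 ± 0.0549, adjusted p = 9.05e-07), and a second probe gave -4.18. TFL1, which keeps the inflorescence growing, went the other way, reading -1.48 and -1.50 in the double mutant, against -4.63 and -4.39 in WT (8.09-fold higher, 3.02 ± 0.0891, adjusted p = 3.24e-06). BFT, a relative of TFL1, read -6.20 and -5.85 in the double mutant, against -3.42 and -3.77 in WT, above background on 1 of the 2 double mutant arrays (-2.43 ± 0.148, adjusted p = 3.81e-05; -1.19 with normexp). SVP, a MADS repressor of FT and SOC1, read 1.61 and 1.55 in the double mutant, against 2.56 and 2.60 in WT (2.00-fold lower, -1.0 ± 0.0570, adjusted p = 2.88e-05) by its brightest probe, and a second probe gave -0.69.

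Genes that set the 2 faces of the leaf differed by less than 2-fold, except AS2. Of 9 genes of the lower (abaxial) side, 7 were higher and 2 lower (median 0.60). KAN2, a GARP factor of abaxial fate, read -1.73 and -1.68 in the double mutant, against -2.53 and -2.55 in WT (1.79-fold, 0.84 ± 0.0463, adjusted p = 2.59e-05). ARF3 (ETTIN), an auxin response factor repressed by AS1 and AS2, read 1.49 and 1.55 in the double mutant, against 0.82 and 0.77 in WT (1.65-fold, 0.72 ± 0.0641, adjusted p = 0.000169). KAN1 rose 1.61-fold and YAB5 fell 1.78-fold, reading 0.57 and 0.52 in the double mutant, against 1.42 and 1.33 in WT. On the upper (adaxial) side, AS2, the partner of AS1, read -3.09 and -3.15 in the double mutant, against -4.58 and -4.70 in WT (2.86-fold higher, 1.52 ± 0.108, adjusted p = 7.06e-05; 0.74 with normexp). HB-8, of vascular tissue, fell 1.5-fold, a call lost under the spike-in scaling at a log2 difference of -0.30, and REV rose 1.41-fold, while PHB and PHV did not pass the test.

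Growth regulators of the leaf blade moved in opposite directions by family. Of 13 genes for GRF factors, their GIF partners and ANT, 8 were higher and 2 lower (median 0.76), 4 of them higher by at least 2-fold. GRF factors and AN3 (GIF1) promote cell proliferation in young leaves. GRF7 read -1.94 and -1.94 in the double mutant, against -4.47 and -4.16 in WT (5.19-fold, 2.37 ± 0.102, adjusted p = 1.06e-05). GRF6 read -2.46 and -2.44 in the double mutant, against -4.33 and -4.06 in WT (3.35-fold, 1.74 ± 0.105, adjusted p = 3.66e-05). AN3 read 1.27 and 1.19 in the double mutant, against -0.32 and 0.18 in WT (2.46-fold, 1.30 ± 0.172, adjusted p = 0.000931). GRF8 was below background in WT and at least 4.41-fold higher. CIN-type TCP genes, which end proliferation and promote leaf maturation, fell in 6 of 8 cases, with 1 higher (median -0.50). TCP3 read -0.28 and -0.20 in the double mutant, against 0.95 and 0.83 in WT (2.18-fold lower, -1.13 ± 0.0673, adjusted p = 3.52e-05). TCP4 read 1.82 and 1.70 in the double mutant, against 2.78 and 2.84 in WT (2.07-fold lower, -1.05 ± 0.0557, adjusted p = 2.22e-05). TCP5 rose 1.47-fold, with log2 differences of 0.43 to 0.68 on leaving out 1 array (lowest without double mutant replicate 2). Under the spike-in scaling 3 of the 8 TCP genes were called lower.

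Cell cycle genes differed little in size. Of 31 cyclin and CDKB genes, 13 were higher (41.9%) and 10 lower (32.3%), against 30.8% and 32.9% of all genes. Among them, 1 in each direction passed 2-fold. The fall past 2-fold, that of CYCD4;2, was not measured on all 4 arrays. Its log2 difference ran over -1.76 to -1.24 on leaving out 1 array. The median of the family, 0.068, became -0.06 with the normexp background correction. There were 13 higher and 5 lower under the spike-in scaling. CYCD3;3, a G1 cyclin of proliferating leaf cells, read 1.47 and 1.53 in the double mutant, against 0.45 and 0.45 in WT (2.07-fold higher, 1.05 ± 0.0443, adjusted p = 1e-05). Core histone genes were lower in 13 of 19 cases and higher in 1, none by 2-fold (median -0.33), and 3 were called lower under the spike-in scaling. HTA12 fell 1.76-fold, reading -2.59 and -2.62 in the double mutant, against -1.76 and -1.83 in WT. Of 18 genes for Polycomb proteins and related chromatin factors, 6 were higher (33.3%) and 4 lower (22.2%), against 30.8% and 32.9% of all genes. Their median was 0.12, and 7 were higher and 1 lower under the spike-in scaling. EMF1, which works with TFL2 in Polycomb repression, was the single one past 2-fold, reading 0.23 and 0.31 in the double mutant, against -0.83 and -0.83 in WT (2.14-fold higher, 1.10 ± 0.0513, adjusted p = 1.41e-05). ULT1, an antagonist of Polycomb silencing, read 0.01 and 0.073 in the double mutant, against 0.82 and 0.83 in WT (1.72-fold lower, -0.78 ± 0.0514, adjusted p = 5.07e-05).

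Cytokinin response genes fell. Type-A response regulators are rapidly induced by cytokinin and damp its signal, and 7 of the 9 tested were lower and none higher, 6 of them by at least 2-fold against 7.02% of all genes (median -1.26). ARR16 read -2.14 and -2.41 in the double mutant, against 0.019 and -0.055 in WT (4.77-fold, -2.25 ± 0.10, adjusted p = 1.19e-05). ARR15 read -2.81 and -2.64 in the double mutant, against -0.57 and -0.66 in WT (4.32-fold, -2.11 ± 0.0714, adjusted p = 4.56e-06). ARR6 read -1.16 and -1.18 in the double mutant, against 0.49 and 0.55 in WT (3.23-fold, -1.69 ± 0.0554, adjusted p = 4.25e-06). The double mutant arrays lay below the WT arrays for each of these. Against tfl2-1 on the same slide, the double mutant was higher by 1.42 ± 0.0554 for ARR6 and 1.27 ± 0.0714 for ARR15 (limma adjusted p = 7.01e-05 and 0.000181), both picked after their values were seen. Genes of cytokinin synthesis were split, with 4 of 9 higher and 4 lower, against 4 higher and 2 lower under the spike-in scaling. IPT3, which makes cytokinin in the phloem, read 0.75 and 0.68 in the double mutant, against -0.97 and -1.08 in WT (3.33-fold higher, 1.74 ± 0.0543, adjusted p = 3.77e-06). LOG5, an activating enzyme, read -1.10 and -1.03 in the double mutant, against -3.98 and -3.92 in WT (7.41-fold higher, 2.89 ± 0.0796, adjusted p = 2.62e-06), whereas LOG1 fell 2.51-fold. The oxidases that degrade cytokinin held the most opposed pair. CKX3 read -1.94 and -1.91 in the double mutant, against -7.79 and -7.57 in WT, below background in WT and at least 37.9-fold higher (adjusted p = 2.21e-06). CKX4 read -4.89 and -4.74 in the double mutant, against -1.04 and -0.97 in WT, 14-fold lower (-3.81 ± 0.0747, adjusted p = 1.26e-06).

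Auxin response genes were lower where they changed most. Aux/IAA genes encode auxin-labile repressors, and auxin induces many of them. Of the 28 tested, 9 were higher and 12 lower, and 9 fell by at least 2-fold against 3 that rose so far. The median of the family was 0.017. Under the spike-in scaling 11 were higher and 10 lower, with a median of 0.30. IAA19 read -3.39 and -3.43 in the double mutant, against 0.20 and 0.18 in WT (12.1-fold lower, -3.60 ± 0.0475, adjusted p = 6.74e-07). IAA6 read -8.16 and -7.69 in the double mutant, against -1.96 and -1.85 in WT, below background in the double mutant and at least 47.1-fold lower (adjusted p = 1.97e-06). IAA29 and IAA5 were above background on 1 of the 2 double mutant arrays. IAA29 read -6.37 and -5.81 in the double mutant, against -0.26 and -0.34 in WT (-5.79 ± 0.174, adjusted p = 3.34e-06; -3.74 with normexp). IAA5 read -6.10 and -5.96 in the double mutant, against -1.75 and -1.74 in WT (-4.28 ± 0.0801, adjusted p = 1.12e-06; -2.60 with normexp). IAA33, which lacks the degron of its relatives, was at least 3.01-fold higher. SAUR genes, many of which promote cell elongation, were lower in 39 of 59 cases, 26 of them by at least 2-fold, and higher in 16 (median -0.68). SAUR34 was below background in the double mutant and at least 6.26-fold lower. SAUR46 read -5.48 and -5.67 in the double mutant, against -3.15 and -2.08 in WT (-2.96 ± 0.319, adjusted p = 0.000383; -1.66 with normexp). SAUR44 went against the majority, reading -2.21 and -2.05 in the double mutant, against -5.32 and -5.27 in WT (8.98-fold higher, 3.17 ± 0.0725, adjusted p = 1.81e-06; 1.94 with normexp). SAUR genes lie in groups of close relatives, and probes may read more than 1 of them. Among enzymes of auxin synthesis, TAA1, the aminotransferase of the main route, read -1.49 and -1.44 in the double mutant, against 0.26 and 0.22 in WT (3.25-fold lower, -1.70 ± 0.0502, adjusted p = 3.23e-06). YUC2 read -4.63 and -4.63 in the double mutant, against -2.82 and -2.74 in WT (3.60-fold lower, -1.85 ± 0.0943, adjusted p = 1.92e-05), while TAR2 rose 1.35-fold. Of the carriers, PIN4 fell 2.49-fold and PIN3 2.34-fold, and 5 of 9 transport genes were lower in all, with 1 higher (median -0.35), against 1 higher and 2 lower under the spike-in scaling (median -0.059).

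Gibberellin synthesis genes fell at a single step, while falls took in more of the gibberellin inactivation, brassinosteroid and shade growth genes. The gibberellin 3-oxidases make the active hormone. GA3OX1 read -2.70 and -2.65 in the double mutant, against 0.15 and 0.17 in WT (7.14-fold lower, -2.84 ± 0.0644, adjusted p = 1.75e-06), and GA3OX2 read -7.34 and -9.11 in the double mutant, against -5.04 and -4.70 in WT, below background in the double mutant. The bound for GA3OX2 was at least 8.33-fold lower (adjusted p = 0.00207), but its fitted log2 difference of -3.35 ran over -4.24 to -2.46 on leaving out 1 array, and the smallest fall, without double mutant replicate 2, lies inside that bound of -3.06. Of earlier steps, KAO1 rose 1.43-fold and KAO2 1.53-fold (log2 differences 0.46 to 0.77 on leaving out 1 array, lowest without WT replicate 2). The gibberellin 2-oxidases, which inactivate the hormone, were lower in 5 of 5 cases (median -0.84, or -0.44 with normexp), with 0 higher and 3 lower under the spike-in scaling. Over the 3 measured on all 4 arrays the median was -0.35. GA2OX6 fell 2.68-fold, and GA2OX8 was at least 7.10-fold lower, with fitted differences of -4.47 to -2.90 on leaving out 1 array (smallest without WT replicate 2). The calls of GA2OX2 and GA2OX4 were each lost in 2 of the 4 leave-outs, without double mutant replicate 2 for both, without WT replicate 1 for GA2OX2 (-0.41 to -0.28 over the 4) and without WT replicate 2 for GA2OX4 (-1.10 to -0.57 over the 4). Brassinosteroid synthesis genes were lower in 4 of 7 cases, none by 2-fold, against 1 higher and 2 lower under the spike-in scaling, with DWF4, a rate-limiting hydroxylase, reading -0.73 and -0.64 in the double mutant, against 0.32 and 0.27 in WT (-0.98 ± 0.0502, adjusted p = 1.96e-05). Of 15 regulators of shade and elongation growth, 9 fell, each of these by at least 2-fold, and 3 rose (median -1.15). PRE1, an atypical bHLH protein that promotes elongation, read -4.10 and -4.05 in the double mutant, against -0.97 and -1.0 in WT (8.51-fold lower, -3.09 ± 0.0931, adjusted p = 3.37e-06). KIDARI read -1.37 and -1.55 in the double mutant, against 0.75 and 0.76 in WT (4.66-fold lower, -2.22 ± 0.0681, adjusted p = 3.58e-06). BEE3 fell 2.92-fold, and HB4, a shade-induced HD-Zip gene, rose 3.11-fold, reading -1.37 and -1.33 in the double mutant, against -2.99 and -3.00 in WT.

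Most jasmonate genes fell, while the marker genes VSP1 and VSP2 rose. Of 12 synthesis genes, 10 were lower, 9 by at least 2-fold, and 1 was higher (median -1.72). The falls spanned successive enzymes in the plastid. LOX3, a lipoxygenase, read 0.068 and 0.083 in the double mutant, against 2.43 and 2.40 in WT (5.07-fold, -2.34 ± 0.0432, adjusted p = 1.09e-06). AOS, the allene oxide synthase that commits the pathway, read 1.46 and 1.51 in the double mutant, against 3.86 and 3.85 in WT (5.19-fold, -2.38 ± 0.0502, adjusted p = 1.48e-06). AOC1, the cyclase that follows, read 0.63 and 0.58 in the double mutant, against 3.35 and 3.43 in WT (6.90-fold, -2.79 ± 0.0625, adjusted p = 1.67e-06). AOC2 fell 5.35-fold, while AOC4 rose 1.47-fold. AOC genes are close relatives, so probes may read more than 1 of them. In the response, 11 of 15 genes were lower and 3 higher (median -0.88). JAZ proteins repress jasmonate responses, and their genes are induced by the hormone. JAZ1 read 0.000559 and -0.055 in the double mutant, against 2.09 and 2.05 in WT (4.27-fold lower, -2.10 ± 0.0459, adjusted p = 1.62e-06). JAZ7 read -1.65 and -1.77 in the double mutant, against 0.15 and -0.026 in WT (3.41-fold lower, -1.77 ± 0.0761, adjusted p = 1.07e-05). Against tfl2-1 on the same slide the log2 difference was -1.37 ± 0.0459 for JAZ1 and -1.58 ± 0.0761 for JAZ7 (limma adjusted p = 5.47e-05 and 0.000117), a pair picked after its values were seen. VSP1 and VSP2, storage proteins and classic jasmonate markers, went the other way. VSP1 read 4.27 and 4.23 in the double mutant, against 1.75 and 1.84 in WT (5.48-fold higher, 2.46 ± 0.0512, adjusted p = 1.46e-06). VSP2 read 3.81 and 3.90 in the double mutant, against 1.59 and 1.61 in WT (4.77-fold higher, 2.26 ± 0.0566, adjusted p = 2.2e-06).

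**Figure D3:**
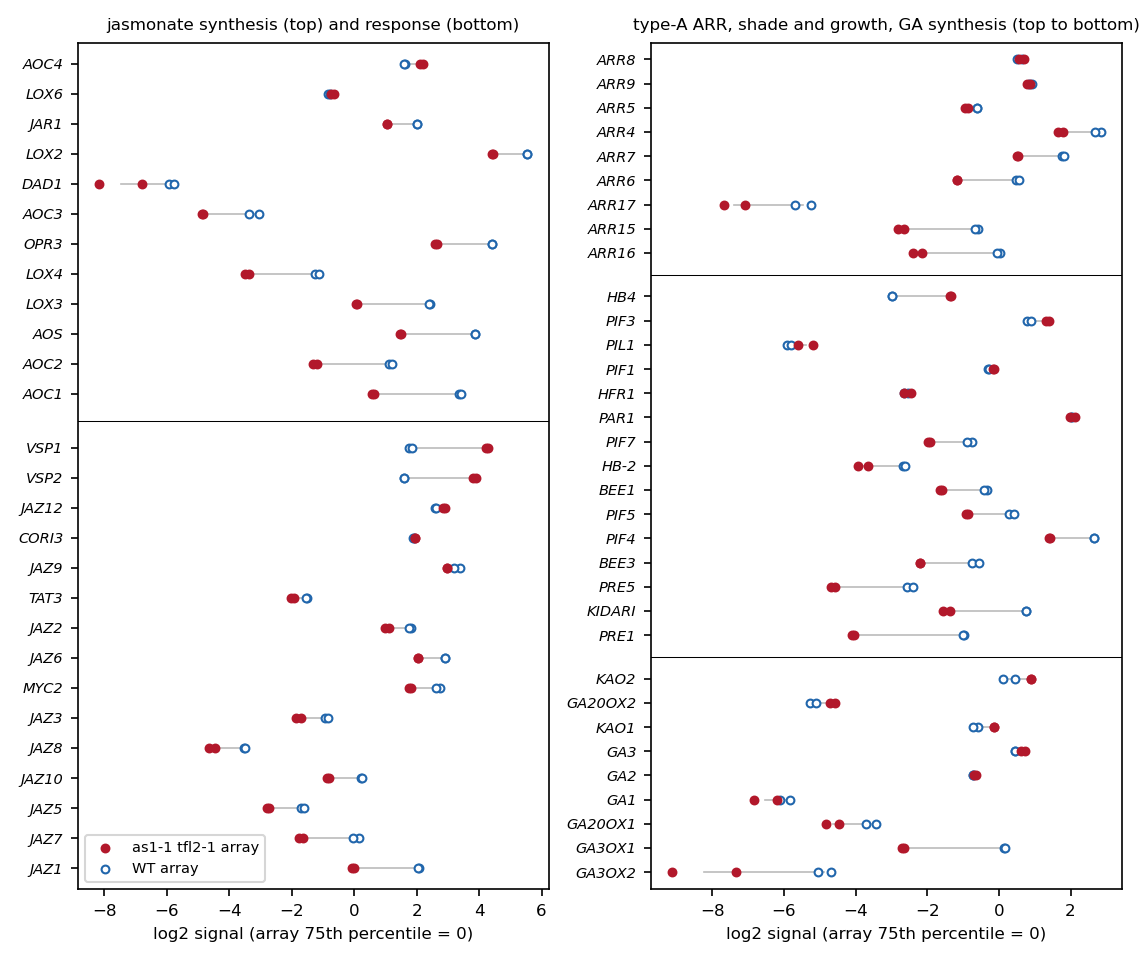
Log2 signal per array (horizontal axes, array 75th percentile = 0) of jasmonate, type-A response regulator, shade and gibberellin synthesis genes, ordered by difference within each list, with as1-1 tfl2-1 arrays filled and WT arrays open. VSP1 and VSP2 lie to the right of WT, while AOC1, AOS, LOX3 and JAZ1 lie to the left.

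Salicylic acid pathway genes were lower in 12 of 17 cases and higher in 4 (median -0.63), with 3 past 2-fold in each direction. EDS5, the transporter that exports the precursor from plastids, read -3.18 and -3.21 in the double mutant, against -1.42 and -1.50 in WT (3.33-fold lower, -1.74 ± 0.0632, adjusted p = 5.89e-06), and NIMIN1, a regulator of NPR1, fell 2.89-fold, with a log2 difference of -1.53, or -0.97 with normexp. PR1, the usual marker of the response, read -4.64 and -4.76 in the double mutant, against -8.13 and -6.98 in WT, below background in WT and at least 5.27-fold higher (adjusted p = 0.000615), with fitted differences of 2.28 to 3.43 on leaving out 1 array (lowest without WT replicate 1). Under the spike-in scaling 6 of the 17 were called lower.

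Genes induced within minutes by touch, wounding or cold were lower. Of 18 rapidly induced genes, 14 were lower, 9 by at least 2-fold, and 2 higher (median -1.05). RRTF1, an ERF factor of redox and wound responses, read -4.37 and -4.56 in the double mutant, against -2.14 and -2.04 in WT (5.20-fold, -2.38 ± 0.0751, adjusted p = 3.84e-06). TCH2, a calmodulin-like protein induced by touch, read -0.11 and -0.062 in the double mutant, against 1.31 and 1.40 in WT (2.72-fold, -1.44 ± 0.0748, adjusted p = 2.05e-05). On the cold list, which holds CBF factors and their targets, 12 of 12 were lower, 10 by at least 2-fold (median -1.91, or -0.89 with normexp). COR15A, which protects chloroplast membranes in frost, read -0.00128 and 0.13 in the double mutant, against 2.49 and 2.57 in WT (5.52-fold, -2.47 ± 0.0643, adjusted p = 2.32e-06). GOLS3, which makes the osmoprotectant galactinol, was below background in the double mutant and at least 5.93-fold lower, and CBF2 at least 3.64-fold lower. Of the 12, 5 were not well above background on all 4 arrays, and the median of the other 7 was -1.39. The median log2 difference from WT was -1.01 in tfl2-1 and 0.32 in as1-1 for the cold list, and -0.43 and 1.70 for the rapidly induced genes, all against the same WT arrays. The labels do not give the hour of harvest, and its part in these genes and in those of the clock was not tested.

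Evening genes of the circadian clock were lower. Of 9 tested, 6 fell and 1 rose (median -1.0), 4 of them past 2-fold. GI (GIGANTEA), which links the clock to flowering through FKF1, read -3.22 and -3.22 in the double mutant, against 0.32 and 0.13 in WT (10.9-fold lower, -3.44 ± 0.0718, adjusted p = 1.46e-06), and a second probe gave -3.09. ELF4, of the evening complex, read 0.96 and 0.90 in the double mutant, against 2.87 and 2.93 in WT (3.92-fold lower, -1.97 ± 0.0566, adjusted p = 2.95e-06). Among genes that peak in the morning, 3 of 7 were higher and 3 lower. LNK1, a coactivator of evening genes, read -5.34 and -5.72 in the double mutant, against -1.79 and -1.85 in WT (13.1-fold lower, -3.71 ± 0.132, adjusted p = 5.44e-06; -2.38 with normexp). PRR7 read -1.33 and -1.45 in the double mutant, against 0.47 and 0.31 in WT (3.45-fold lower, -1.78 ± 0.0760, adjusted p = 1.05e-05). RVE1, a MYB factor that links the clock to auxin, read -0.78 and -0.70 in the double mutant, against -2.87 and -2.88 in WT (4.40-fold higher, 2.14 ± 0.0617, adjusted p = 3e-06).

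Photosynthesis genes fell broadly and modestly. Of 49 genes for photosystem subunits and antennae, all measured on all 4 arrays, 46 were lower and 2 higher (median -0.80), 17 of them lower by at least 2-fold. The median depended on the scaling, at -0.41 with 33 lower under quantile normalization and -0.52 with 26 lower under the spike-ins. LHCB2.1, an antenna protein of photosystem II, read -4.47 and -4.42 in the double mutant, against -1.83 and -1.78 in WT (6.24-fold lower, -2.64 ± 0.0450, adjusted p = 1.01e-06). LHCB2.3 read 0.50 and 0.50 in the double mutant, against 2.91 and 2.88 in WT (5.26-fold lower, -2.40 ± 0.0470, adjusted p = 1.26e-06). PSAH2, a subunit of photosystem I, read 2.45 and 2.46 in the double mutant, against 4.21 and 4.34 in WT (3.53-fold lower, -1.82 ± 0.0569, adjusted p = 3.75e-06). Against tfl2-1 on the same slide, the log2 difference was -2.19 ± 0.0450 for LHCB2.1 and -0.89 ± 0.0569 for PSAH2 (limma adjusted p = 1.99e-05 and 0.000272), picked after their values were seen. PSBP-2, a copy of a subunit of the oxygen-evolving complex, rose 2.26-fold, with a log2 difference of 1.18, or 0.76 with normexp. Calvin cycle genes were lower in 12 of 13 cases (median -0.70), against 7 under quantile normalization (median -0.21) and 5 under the spike-ins. FBA1, an aldolase, read 3.61 and 3.53 in the double mutant, against 4.96 and 4.72 in WT (2.41-fold lower, -1.27 ± 0.0932, adjusted p = 7.8e-05), and RCA, the activase of Rubisco, fell 2.09-fold. Chlorophyll synthesis genes were lower in 9 of 11 cases and higher in 1, with 5 called lower under the spike-ins. PORC, which makes chlorophyll in the light, fell 2.38-fold, and CHLI1, a subunit of magnesium chelatase, fell 2.06-fold.

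**Figure D4:**
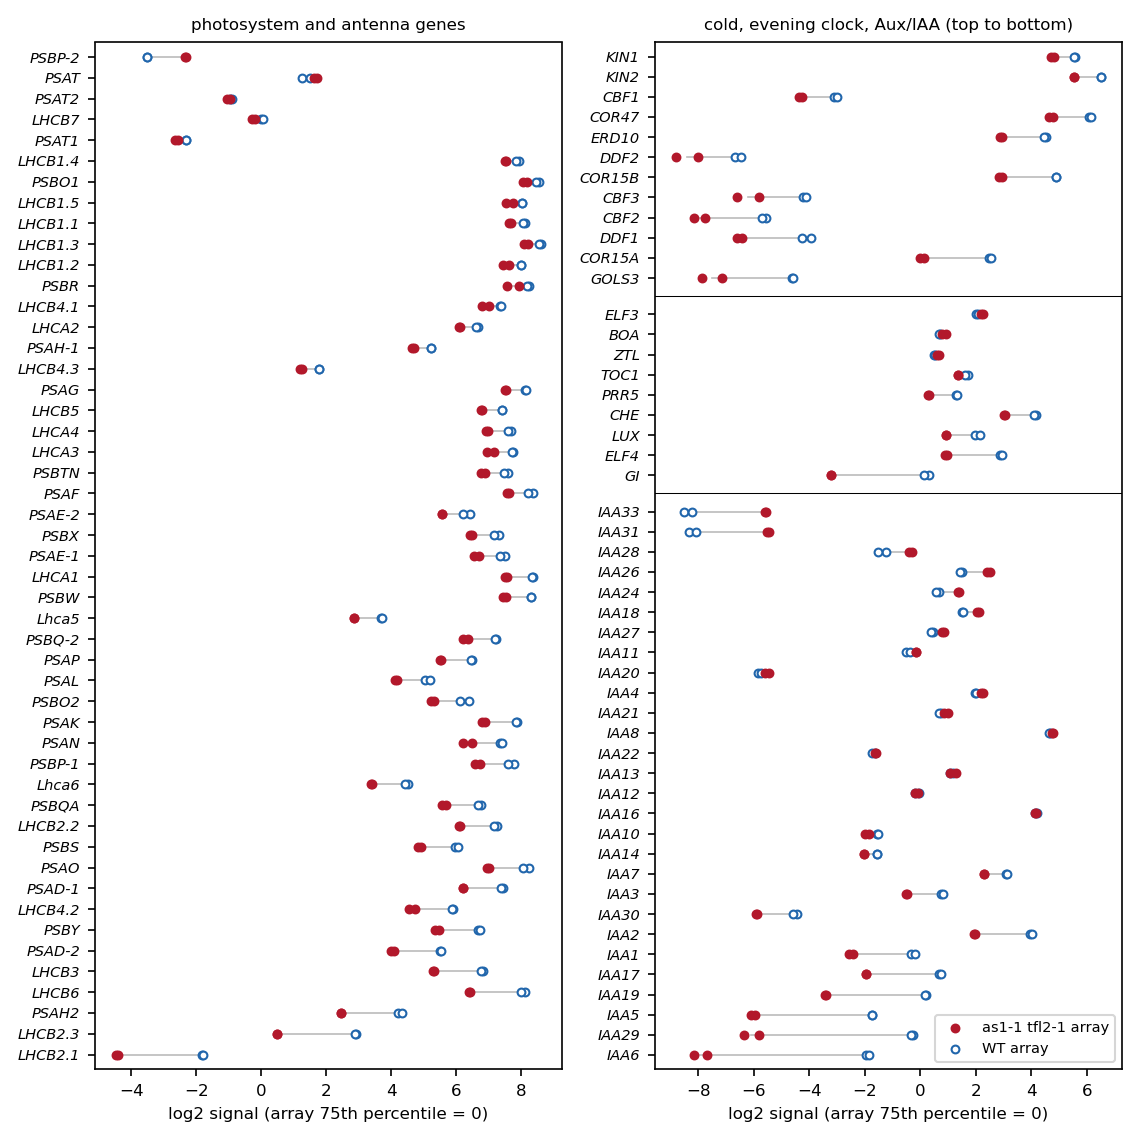
Log2 signal per array (horizontal axes, array 75th percentile = 0) of the photosystem, cold, evening clock and Aux/IAA genes, ordered by difference within each list, with as1-1 tfl2-1 arrays filled and WT arrays open. Of the 49 photosystem genes 46 were lower in the double mutant, and IAA6, IAA29 and IAA5 lay furthest below WT among the Aux/IAA genes.

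Indole glucosinolate genes fell together, and other genes of defence metabolism and pigments changed at particular steps. All 10 indole glucosinolate genes tested were lower (median -0.86), 3 by at least 2-fold. CYP81F2, which modifies the indole ring, read -3.92 and -4.03 in the double mutant, against 0.18 and 0.12 in WT (17.4-fold, -4.12 ± 0.0531, adjusted p = 6.46e-07). MYB34, an activator of the pathway, read 0.50 and 0.31 in the double mutant, against 1.74 and 1.66 in WT (2.46-fold, -1.30 ± 0.0865, adjusted p = 5.43e-05). Of 13 aliphatic glucosinolate genes, 5 were higher (38.5%) and 4 lower (30.8%), near the 30.8% and 32.9% of all genes. Under the spike-in scaling 5 were higher and 2 lower. MAM3, which elongates glucosinolate side chains, read -5.16 and -5.02 in the double mutant, against -0.59 and -0.45 in WT (23.8-fold lower, -4.57 ± 0.0706, adjusted p = 9.05e-07), while its neighbour MAM1 rose 1.81-fold. Against tfl2-1 on the same slide the log2 difference of MAM3 was -3.71 ± 0.0706 (limma adjusted p = 1.99e-05), a gene picked after its values were seen. In the flavonoid pathway 8 of 17 genes were lower and 4 higher, but of the 9 measured on all 4 arrays 3 rose and 1 fell, so the falls rest on genes that left the measurable range in the double mutant. DFR, the first enzyme of the anthocyanin branch, read -7.39 and -8.31 in the double mutant, against -3.34 and -3.15 in WT, below background in the double mutant and at least 23.0-fold lower (adjusted p = 3.48e-05). PAP1, a MYB activator of that branch, read -7.20 and -6.60 in the double mutant, against -3.92 and -3.82 in WT, above background on 1 of the 2 double mutant arrays (-3.03 ± 0.370, adjusted p = 0.000659; -1.21 with normexp). The brightest TT19 probe was at least 27.0-fold lower, but a second TT19 probe gave 0.86, so the direction of TT19, a transport gene, is not settled. MYB12, an activator of flavonol genes, was at least 4.69-fold higher. Lignin genes were lower in 9 of 15 cases and higher in 3, against 3 higher and 2 lower under the spike-in scaling, where the median of -0.23 became 0.053. FAH1, an enzyme of syringyl lignin and sinapate esters, had the largest fall, reading -2.04 and -1.87 in the double mutant, against 0.22 and 0.25 in WT (4.56-fold, -2.19 ± 0.0749, adjusted p = 4.73e-06).

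Several classes of cell wall genes held more falls of at least 2-fold than the 7.02% of all genes. Arabinogalactan protein genes were lower in 27 of 40 cases, 15 by at least 2-fold, and higher in 3 (median -0.63), against 5 higher and 18 lower under the spike-in scaling (median -0.35). FLA9 read 2.65 and 2.72 in the double mutant, against 4.44 and 4.41 in WT (3.34-fold lower, -1.74 ± 0.0476, adjusted p = 2.62e-06), and AGP22 was at least 5.04-fold lower. Expansins loosen walls in growing cells, and 11 of 21 were lower, 9 of them by at least 2-fold, against 6 higher, 4 by at least 2-fold. EXLB1 read -3.91 and -3.77 in the double mutant, against -0.16 and -0.37 in WT (11.9-fold lower, -3.57 ± 0.0836, adjusted p = 1.91e-06). EXPA8 read -2.15 and -2.25 in the double mutant, against 1.20 and 1.19 in WT (10.5-fold lower, -3.39 ± 0.0615, adjusted p = 1.07e-06). EXPA20 rose 2.96-fold. Of 25 genes for XTH enzymes, which cut and rejoin xyloglucan, 9 were higher (36.0%) and 8 lower (32.0%), with 4 and 6 of these past 2-fold. The shares of all genes called were near these, at 30.8% and 32.9%. XTH31 read -2.80 and -3.06 in the double mutant, against 1.06 and 1.00 in WT (15.5-fold lower, -3.96 ± 0.0956, adjusted p = 2.02e-06), and XTH15 read 1.28 and 1.36 in the double mutant, against -0.61 and -0.74 in WT (4.0-fold higher, 2.00 ± 0.0629, adjusted p = 3.83e-06). Cellulose synthases and their relatives were lower in 18 of 32 cases, 7 by at least 2-fold, and higher in 6, but the balance turned to 8 higher and 7 lower under the spike-in scaling, where the median of -0.26 became 0.029.

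Markers of other organs and cell types were compared, since seedlings could hold them in other proportions. Of 14 root markers 6 passed the filter. SHR rose 1.40-fold, PYK10, an abundant root glucosidase, fell 1.85-fold, and WOX5, of the root stem cell centre, was at least 5.27-fold lower. SCR rose by 0.38 with its brightest probe, while its second probe gave -0.75 and the mean of both -0.19. Stomatal lineage markers were lower in 6 of 8 cases and higher in none (median -0.51), with 3 called lower under the spike-in scaling. EPF2, a peptide that limits entry into the lineage, read -3.70 and -3.68 in the double mutant, against -2.15 and -2.22 in WT (2.84-fold lower, -1.50 ± 0.0546, adjusted p = 5.85e-06). SPCH, the factor that starts the lineage, read -3.85 and -3.75 in the double mutant, against -2.76 and -2.44 in WT (2.30-fold lower, -1.20 ± 0.105, adjusted p = 0.000158). Trichome markers were mixed, with 4 of 9 higher and 2 lower (median 0.26). TRY had the largest rise, with a log2 difference of 1.13 (1.02 to 1.25 on leaving out 1 array). GL1, a MYB activator of trichome fate, fell 2.35-fold. Most of 19 seed maturation genes did not pass the filter, 8 did, and among these 2 were higher and 3 lower. Only 2 of the 8 were measured on all 4 arrays, of which 1 was called higher and 0 lower. The largest fitted fall was that of SESA3, with a log2 difference of -4.19 (-4.72 to -3.66 on leaving out 1 array). ABI5 read -0.50 and -0.71 in the double mutant, against -3.03 and -2.72 in WT (4.82-fold higher, 2.27 ± 0.114, adjusted p = 1.85e-05). The summed linear signal of the 49 photosystem genes, which mark green tissue, was 4143 and 4449 in the double mutant arrays, against 7325 and 7005 in the WT arrays, in units of the 75th percentile. For the 6 root markers it was 9.22 and 8.76 in the double mutant, against 13.7 and 13.3 in WT. Such a sum follows its brightest members, and of these 6 genes 2 were called higher and 2 lower. Their median log2 difference was -0.25, or 0.38 with signal above background on all 8 arrays. For the 8 stomatal markers it was 5.81 and 6.05 in the double mutant, against 7.80 and 7.78 in WT. The part of tissue proportions in the differences above was not tested.

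The largest changes outside these lists included genes of unknown or scattered function. MSRB6, a methionine sulfoxide reductase of a tandem cluster, had the largest fall among genes measured on all 4 arrays, reading -5.60 and -5.38 in the double mutant, against 1.91 and 2.03 in WT (176-fold, -7.46 ± 0.0910, adjusted p = 5.88e-07). Against tfl2-1 on the same slide its log2 difference was -3.52 ± 0.0910 (limma adjusted p = 2.44e-05), picked after its values were seen. Other falls were those of AT1G66100, 23.6-fold with -3.12 and -2.77 in the double mutant, against 1.55 and 1.68 in WT, and of AT5G03545 (AT4, a transcript induced by phosphate starvation), 14.2-fold with -3.68 and -3.62 in the double mutant, against 0.16 and 0.18 in WT. AT5G26220, a gamma-glutamyl cyclotransferase gene of glutathione turnover, was below background in the double mutant and at least 23.7-fold lower. The largest rises measured on all 4 arrays that were not floral genes were those of SWEET10, AT3G28500 and AT3G19550. SWEET10, a sugar transporter gene, read 1.29 and 1.46 in the double mutant, against -4.53 and -4.56 in WT (60.5-fold, 5.92 ± 0.395, adjusted p = 5.44e-05). AT3G28500 read 2.93 and 2.94 in the double mutant, against -2.85 and -2.77 in WT (53.7-fold, 5.75 ± 0.0455, adjusted p = 2.55e-07). THA1, a threonine aldolase, read 0.17 and 0.093 in the double mutant, against -3.99 and -4.10 in WT (18.1-fold, 4.18 ± 0.0745, adjusted p = 1.01e-06). LLG2, a GPI-anchored chaperone of receptor kinases, rose 17.7-fold. Of genes below background in WT, the largest lower bounds were at least 201-fold for AT5G22430, at least 163-fold for HB40, an HD-Zip gene that acts with BRC1 in dormant buds, and at least 125-fold for ORP4B, a sterol-binding protein gene. HB40 read 0.19 and 0.17 in the double mutant, against -8.37 and -8.20 in WT.

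**Figure D5:**
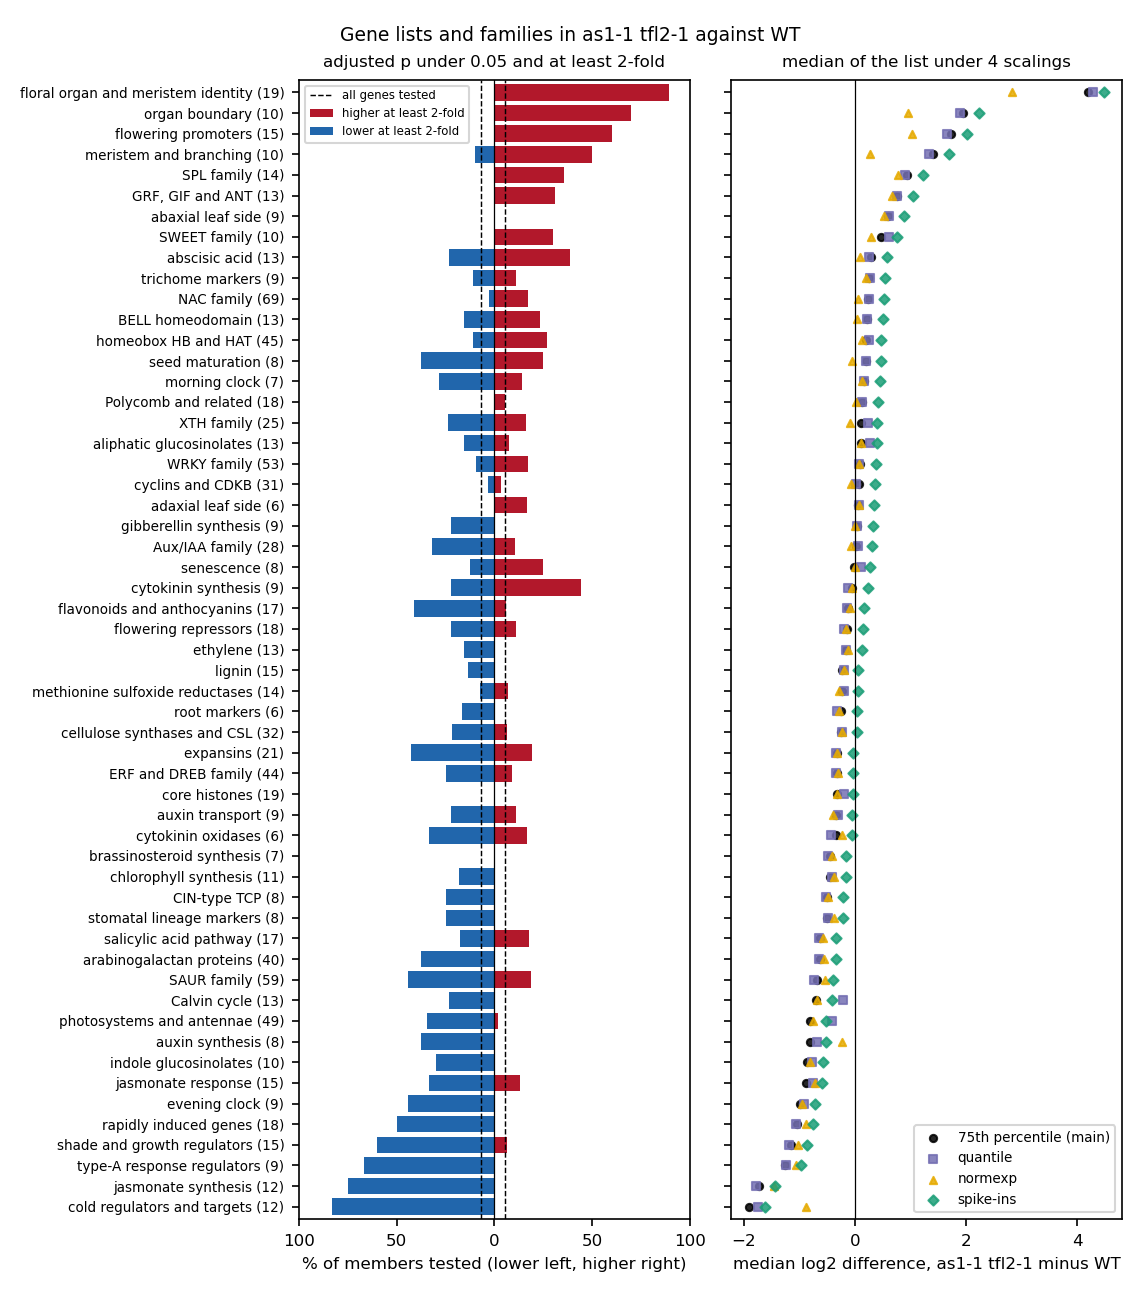
Left, share of the members tested (number in brackets) that were higher (right) or lower (left) by at least 2-fold at an adjusted p under 0.05 in as1-1 tfl2-1 against WT, with dashed lines at the shares of all genes tested, 5.31% and 7.02%. Right, median log2 difference (double mutant minus WT) of each list under 4 scalings, which move lists near 0 across it and leave floral, boundary, cold and jasmonate synthesis lists on their side.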

How the data were processed

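The deposited scanner files hold 1 array each, and the column used is the processed spot intensity in the green channel, which the authors' Agilent Feature Extraction 10.7 made by background subtraction, per the file headers and the submitters' processing notes. From it, log2 intensity minus the 75th percentile of each array was computed. The authors' deposited value table holds log2 values, which served as an alternative only. Control and outlier spots were left out, the brightest probe stood for a gene, and a probe was kept if both arrays of some genotype showed it well above background, which left 30467 probes and 22670 genes, 19001 of them with a locus in the gene table. A linear model over all 8 arrays (limma 3.58.1, R 4.3.3) gave each contrast, with Benjamini-Hochberg adjustment over all genes and a threshold of 0.05. The script was tested on simulated data, recovering 82% of genes changed by 1 and 63% of those changed by 0.5 on the log2 scale. Only 100 genes per size were changed among 22670, with independent noise and no slide effect. In the data far more genes were called, so these shares are not the power of the comparison. Members and lists were chosen with earlier results of these data known. Named genes were AS1, TFL2, the class I KNOX and floral lists, the 12 largest rises and falls measured on all 4 arrays, the 6 largest lower bounds each way, and the 5 largest changes of a list or 3 of a family with the largest opposite one. Families were built from gene symbols, and 1 locus with a misleading symbol was left out of the SPL family. Arrays were grouped by their titles. Alternatives covered background, scaling, probe filters, arrays left out and a replicate block.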

Additional observations from a re-analysis of the deposited data

How the results depend on the processing

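Of the alternatives, 3 moved counts of changed genes by over 1.5 times. With spike-in scaling, 2634 genes were lower in place of 7454, 2155 were at least 2-fold higher and 1035 at least 2-fold lower. Normexp background correction, which compresses dim genes, left 574 genes at least 2-fold higher and 1031 at least 2-fold lower. A test against a minimum size (limma's treat) called 656 genes higher and 849 lower, 1505 in all. Leaving out 1 double mutant or WT array at a time gave 12386 to 12922 changed genes, 5934 to 6159 of them higher and 6452 to 6805 lower, fewer samples being tested. Of 3806 recomputed differences of the 299 named genes, 3693 kept their side of the threshold, 109 lost the call and 4 turned round. Direction was followed for called genes only. AS1, which was not called, ran over -0.05 to 0.09 on leaving out 1 array. The 4 were TT19 (0.86, above background on all 8 arrays), KNAT7 (0.13) and SPL1 (0.11) with spike-in scaling, and SCR (-0.19) with the mean of probes. Among 59 list medians, 566 of 766 recomputed values moved by less than the spread between replicates, 189 moved by more and 11 turned round. A value was counted as turned only where the main median was larger than that spread. Requiring signal above background on all 8 arrays turned meristem (-0.29) and abscisic acid genes (-0.00183), spike-in scaling turned flowering repressors (0.14), lignin (0.053), methionine sulfoxide reductases (0.051) and cellulose synthases (0.029), normexp turned cyclins (-0.062), XTH genes (-0.10) and gibberellin synthesis (-0.00225), the mean of probes turned gibberellin synthesis (-0.053), and leaving out double mutant replicate 1 turned morning clock genes (-0.48 to 0.19 over the 4 arrays left out). Some medians within the spread also changed sign without being counted. Examples were ethylene (-0.16 to 0.13) and flavonoid genes (-0.12 to 0.16) under the spike-in scaling. Root markers went from -0.25 to 0.38 with signal above background on all 8 arrays. The cause of each was not tested. Replicate numbers did not pair the arrays (correlation of deviations -0.05), and a fit with the replicate block called 13903 genes in place of 14437. Slide as a random block was not run, because each genotype lay on 1 slide, and slide and genotype cannot be told apart. Having 2 arrays per genotype limits precision, and genes near background carry the widest spread.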

Other observations

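Homeobox, NAC and WRKY transcription factor families held more rises of at least 2-fold than the 5.31% of all genes. Among members measured on all 4 arrays, 8 of 40, 9 of 62 and 6 of 48 rose so far, against 3.96% of all such genes. Among 45 genes named HB or HAT, 19 were higher, 12 by at least 2-fold, and 13 lower (median 0.19), against 23 higher and 5 lower under the spike-in scaling. HB21, which acts with HB40 downstream of BRC1 in buds, read -1.18 and -1.0 in the double mutant, against -6.99 and -7.01 in WT, below background in WT and at least 60.2-fold higher (limma adjusted p = 8.83e-07). Of 69 NAC genes, 36 were higher, 12 of them by at least 2-fold, and 14 lower, against 38 higher and 5 lower under the spike-in scaling. Apart from the CUC genes, NAP, a regulator of leaf senescence, read -0.025 and 0.018 in the double mutant, against -1.85 and -1.95 in WT (3.72-fold higher, 1.90 ± 0.102, adjusted p = 2.3e-05). Of 53 WRKY genes, 20 were higher (37.7%), 9 by at least 2-fold, and 19 lower (35.8%), 5 by at least 2-fold. The shares of all genes called were 30.8% and 32.9%. Under the spike-in scaling 22 WRKY genes were higher and 10 lower. WRKY14 read -1.19 and -1.85 in the double mutant, against -4.67 and -4.86 in WT (9.50-fold higher, 3.25 ± 0.202, adjusted p = 4.07e-05; 2.07 with normexp). WRKY18, a regulator of defence, read 0.64 and 0.62 in the double mutant, against 2.32 and 2.48 in WT (3.41-fold lower, -1.77 ± 0.0601, adjusted p = 4.61e-06). ERF and DREB genes leaned to the lower side, with 23 of 44 lower, 11 by at least 2-fold, and 12 higher (median -0.33). Under the spike-in scaling 13 were higher and 18 lower, and the median was -0.039. Over the 38 members measured on all 4 arrays 17 were lower, 6 by at least 2-fold, and 12 higher (median -0.19). ERF12 stood apart from that side, reading -1.99 and -2.0 in the double mutant, against -5.87 and -5.63 in WT (13.5-fold higher, 3.75 ± 0.120, adjusted p = 3.95e-06; 2.09 with normexp).

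Sugar transporters of the SWEET family were higher in 6 of 10 cases and lower in 3. Apart from SWEET10, SWEET1 was 2.24-fold higher, reading 1.11 and 1.16 in the double mutant, against -0.065 and -0.00112 in WT. Methionine sulfoxide reductases, which repair oxidised proteins, were split between 4 higher and 7 lower of 14, against 5 higher and 4 lower under the spike-in scaling, and MSRB6 was the single member past 2-fold on the lower side. Senescence genes were split as well, 3 higher and 4 lower of 8, against 3 higher and 2 lower under the spike-in scaling. SEN1, a gene induced by darkness and ageing, read 5.97 and 5.87 in the double mutant, against 4.73 and 4.65 in WT (2.35-fold higher, 1.23 ± 0.0590, adjusted p = 1.54e-05). Abscisic acid genes included 6 higher and 4 lower of 13. CYP707A2, which degrades the hormone, read -5.13 and -6.16 in the double mutant, against -2.99 and -3.15 in WT (-2.57 ± 0.337, adjusted p = 0.000883; -1.34 with normexp and -3.09 to -2.06 on leaving out 1 array, smallest without double mutant replicate 2), while CYP707A4, of the same family, read -3.50 and -3.45 in the double mutant, against -5.57 and -5.76 in WT (2.19 ± 0.114, adjusted p = 2.07e-05; 0.86 with normexp) and was above background on 1 of the 2 WT arrays. Of 13 ethylene genes, 5 were lower (38.5%) and 1 higher (7.69%), against 32.9% and 30.8% of all genes. Under the spike-in scaling 3 were higher and 4 lower. The higher gene, ERS2, and ACS2 among the lower ones passed narrowly (limma adjusted p = 0.04 and 0.031). The log2 difference of ERS2 ran over 0.18 to 0.56 on leaving out 1 array. ACO4, an oxidase that makes ethylene, read 3.80 and 3.77 in the double mutant, against 5.04 and 5.07 in WT (2.41-fold lower, -1.27 ± 0.0485, adjusted p = 7.03e-06).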
